A study of Mus musculus with 28 samples.

Results

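Solute carriers are membrane proteins that move amino acids, sugars, nucleosides, metal ions, phosphate and other small molecules across the plasma membrane and the membranes of mitochondria, the Golgi and lysosomes. Their genes share the prefix Slc, a family number and a member letter, and a family groups carriers of related sequence. A T cell that divides after activation takes up amino acids, glucose and iron through such carriers, while mitochondrial carriers exchange nucleotides, phosphate and metabolites with the matrix. Described here are the 151 Slc genes expressed in cultured CD4+ T cells, out of 374 Slc symbols in an RNA-seq table of 24089 genes.

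Naïve CD4+ CD62L+ T cells came from the spleen and lymph nodes of mice on a C57BL/6 background. The study describes Tgfbr1 f/f Ert2-cre mice, in which a tamoxifen-activated Cre can delete Tgfbr1, the gene of TGF-β receptor I. Titles of the open-chromatin libraries name oil for WT and tamoxifen for KO, the deleted genotype. The RNA-seq titles say only WT or KO, and the study also lists Tgfbr1 f/f Cd4-cre mice. Where WT mice received oil and KO mice tamoxifen, the deletion and the drug cannot be told apart. Cells of both genotypes were stimulated through the T cell receptor with anti-CD3 and anti-CD28 and cultured without added cytokine (control), with either TGF-β or IL-4, or with the pair, TGF-β + IL-4, which drives Th9 differentiation. RNA-seq gave 3 libraries for each of these 8 conditions, and DNase-seq, which marks open chromatin, gave 1 library for the control and 1 for the TGF-β + IL-4 culture of each genotype.

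The genes were selected on their level: a symbol of Slc followed by a digit and a mean of at least 1 RPKM over the 24 columns. RPKM are reads scaled by the length of a gene and the size of its library, so levels can be compared between genes. Of the 374 symbols, 155 passed and 44 were at 0 in every column. The glucose carriers Slc2a1 (mean 54.6 RPKM) and Slc2a3 (6.07 RPKM) and the lactate carriers Slc16a1 (47.8 RPKM) and Slc16a3 (8.56 RPKM) were left out by the rule, which gave the 151. The members just inside the limit were Slc9a7 (1.045 RPKM), Slc44a1 (1.065 RPKM) and Slc25a28 (1.086 RPKM), and symbols just outside included Slc4a11 (0.944 RPKM) and Slc1a7 (0.903 RPKM). Among the 151, 4 genes carry the symbol without being carriers, such as Slc9a3r1 (67.2 RPKM), a scaffold protein that binds a sodium-proton exchanger. Another is Slc7a6os (19.7 RPKM), which lies beside Slc7a6 on the opposite strand without overlapping it. All 151 were above 0 in all 24 libraries.

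The columns of the RNA-seq table were read by position in the order of the library numbers and not by their headings. Read counts that the study lists for 8 WT libraries, compared by which genes are at 0, matched the column at that position for 8 of 8 libraries, with at least 99.85% of genes in the same state and at most 85.79% for any other column. By heading, 2 of the 8 matched. The other 4 WT columns and the 12 KO columns rest on position alone. With columns as headed, 0 members were called in any comparison. The median within-group SD over all tested genes was 0.075 to 0.081 on the log2 scale in the WT groups by position and 0.099 to 0.15 as headed. In the KO groups it was 0.08 to 0.116 by position and 0.089 to 0.108 as headed, so this spread does not separate the readings there.

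The total depth of the libraries is unknown. Their relative depth, read from the steps between low values, lay between 0.794 and 1.66, and correlations of log2(RPKM + 1) between libraries lay between 0.9876 and 0.9988. Tgfbr1 itself was at 3.02, 3.25 and 3.31 RPKM in WT control and at 2.32, 2.55 and 3.05 RPKM in KO control, which overlap. In WT cells it reached 13.9 to 14.5 RPKM with TGF-β and 17.6 to 20.7 RPKM with TGF-β + IL-4, whereas KO libraries stayed between 2.32 and 5.18 RPKM. The 6 T cell markers summed to 1261 to 1701 RPKM in every library, against 14.3 to 36.3 RPKM for 2 CD8 T cell markers, 8.14 to 33.8 RPKM for 5 B cell markers, 1.03 to 7.16 RPKM for 3 NK cell markers and 0.015 to 22 RPKM for 4 red cell genes, of which 1 was at 0 throughout. The 6 myeloid markers summed to 5.56 to 7.65 RPKM in WT control, 8.57 to 21.8 RPKM in WT TGF-β and 9.83 to 20.6 RPKM in WT TGF-β + IL-4, so they were higher with TGF-β. In KO cells they summed to 2.21 to 3.47 RPKM in control and 2.79 to 12.7 RPKM with TGF-β. Their part in the results below was not tested. In a bulk library, fewer cells of a type and less RNA per cell cannot be told apart.

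The level of the carriers differed strongly between members. The mitochondrial adenine nucleotide carrier Slc25a5 was the highest, with a lowest library of 1351, a median of 1566 and a highest of 1720 RPKM. The mitochondrial phosphate carrier Slc25a3 followed with 448, 542 and 626 RPKM for the same quantities. Next in mean level were another adenine nucleotide carrier, Slc25a4 (275 RPKM), the mitochondrial glutathione carrier Slc25a39 (197 RPKM) and the nucleoside carrier Slc29a1 (177 RPKM). The 5 highest members held 54.1% of the summed mean RPKM of all 151. The median member had a mean of 7.71 RPKM, below the 11.9 RPKM of the median tested gene, and 43.0% of members reached 10 RPKM against 53.8% of all tested genes. Together the members made up 0.692% to 0.816% of all RPKM in a library.

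Role classes were set by family number, so the solute or membrane of a single member can differ from its class. Slc43a3, a purine nucleobase carrier, was counted with the amino acid carriers in this way. By role, the largest class was the 32 members of the mitochondrial carrier family, with a class median of 14.6 RPKM. The 22 amino acid and peptide carriers had a median of 9.82 RPKM and were led by the glutamine carrier Slc1a5 (127 RPKM) and by Slc3a2 (125 RPKM), the heavy chain that partners several amino acid carriers. Its light chain Slc7a5, the leucine carrier, was at 7.77 to 13.7 RPKM. The 23 carriers of zinc, iron, copper, magnesium and heme had a median of 7.74 RPKM, with the zinc carriers Slc39a7 (87.5 RPKM) and Slc39a1 (27.9 RPKM) highest. The 22 carriers of nucleotide sugars and of the secretory pathway, led by Slc35a4 (131 RPKM) and Slc35b1 (56.6 RPKM), had a median of 7.77 RPKM. Among 13 carriers of nucleosides, vitamins and choline, Slc29a1 and the reduced folate carrier Slc19a1 (128 RPKM) stood highest. The 18 ion, phosphate and pH carriers had the lowest class median, 4.06 RPKM, led by the sodium-proton exchanger Slc9b2 (16.1 RPKM) and the potassium-chloride cotransporter Slc12a4 (13.7 RPKM). The sugar and monocarboxylate carriers left by the rule numbered 8 and were led by the sugar carrier Slc50a1 (39.4 RPKM), and the 9 carriers of organic ions, urea and lipids by Slc10a3 (20.4 RPKM).

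**Figure D1:**
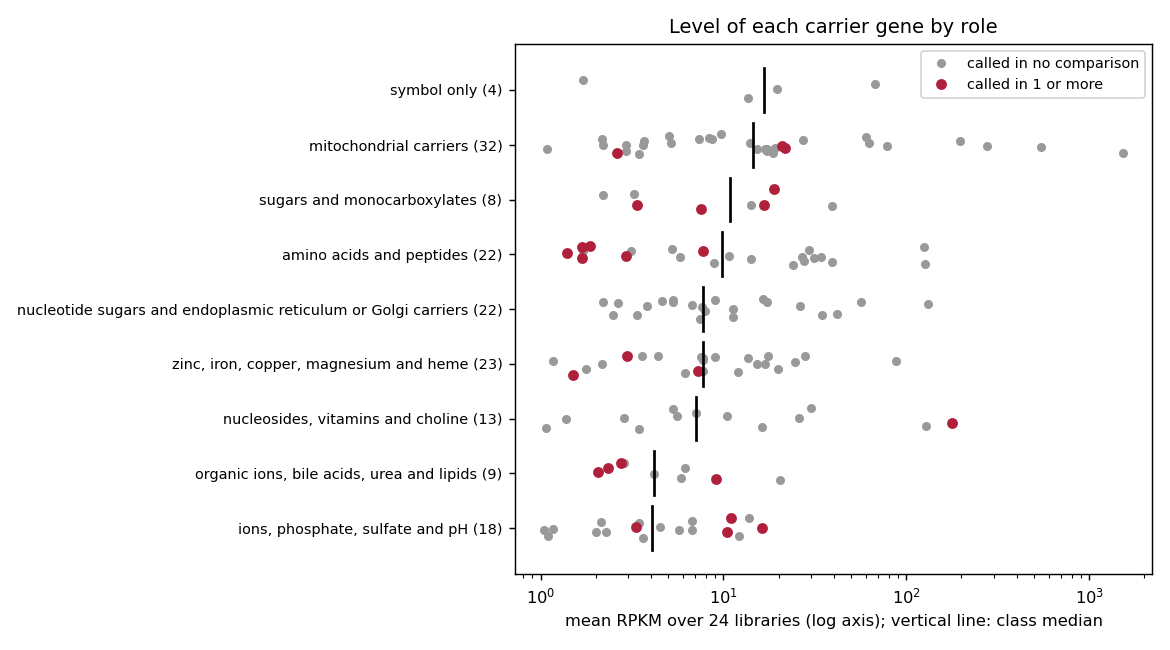
Mean RPKM over 24 libraries (log axis) of each of the 151 genes, one point per gene, by role class with the number of members in brackets and the class median as a vertical line. The mitochondrial carrier Slc25a5 lies farthest right at 1538 RPKM, and red points, called in 1 or more of 12 comparisons, lie below 25 RPKM except Slc29a1 at 177 RPKM.

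The spread of the members between cultures was close to that of other genes. The ratio of the highest to the lowest of the 24 libraries had a median of 1.57 over the members and 1.6 over all tested genes. It was under 1.5 in 65 members (43.0%, against 39.7% of all tested genes) and at least 3 in 17 (11.3%, against 11.4%). The glutamine carrier Slc38a1 was the steadiest member, with 32.1, 34.3 and 36.4 RPKM as lowest, median and highest library, a ratio of 1.14. The related Slc38a2 spanned 26.9 to 35.7 RPKM, the arginine carrier Slc7a1 11.5 to 16.7 RPKM and the cystine carrier Slc7a11 23 to 32.2 RPKM. The taurine carrier Slc6a6 lay between 24.2 and 35.2 RPKM, the iron carrier Slc11a2 between 13.2 and 18.4 RPKM, and the phosphate carrier Slc20a1 between 9.14 and 14.4 RPKM. None of these 7 was called in any comparison. Nor were the zinc carrier Slc39a14 (1.81 to 2.68 RPKM) or the endosomal sodium-proton exchanger Slc9a9 (0.711 to 1.58 RPKM).

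Differences between conditions were tested with limma on log2(RPKM + 1) over 9726 genes with a mean of at least 1 RPKM, and calls needed a fold change over 1.5 with an adjusted p (Benjamini-Hochberg) under 0.01, the thresholds of the study. Fold changes on this scale understate the change of low genes. In WT cells 23 of 151 members (15.2%) were called with TGF-β, IL-4 or both against control, where 10.5% of all tested genes were, and in KO cells 9 (5.96%) were, against 3.32% of all genes. In none of the 12 comparisons were 126 members called (83.4%, against 86.3% of all genes). With TGF-β in WT cells 9 members were higher and 2 lower, with 3.09% of all genes higher and 2.3% lower as background. With IL-4 in WT cells 4 were higher and 1 lower (background 0.915% and 0.391%), and with TGF-β + IL-4 15 were higher and 2 lower (5.93% and 2.53%). In KO cells IL-4 gave 7 higher and 1 lower (1.63% and 1.02%), and TGF-β + IL-4 8 higher and 1 lower (1.94% and 0.915%). The median log2 fold change of the members was 0.04 with TGF-β and 0.07 with TGF-β + IL-4 in WT cells, beside 0.01 and 0.02 over all tested genes.

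**Figure D2:**
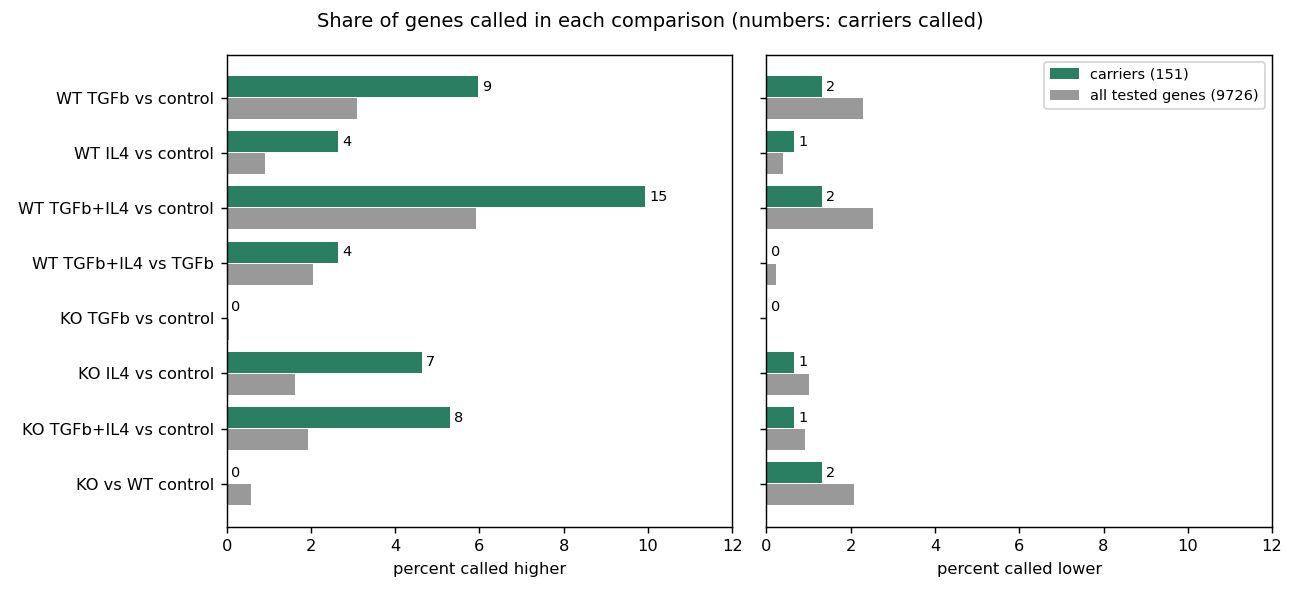
Percent of the 151 carriers (green) and of the 9726 tested genes (grey) called higher (left) and lower (right) in each of 8 comparisons, with the number of carriers called beside each green bar. The longest green bar is WT TGF-β + IL-4 against control, with 15 carriers higher where 5.93% of all genes were.

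Open chromatin is shown first at 5 sites of 4 called members, as a second readout at the same loci. The sites were chosen after their values were seen. The 151 bases around the summit of a DNase hypersensitive site (DHS) in WT TGF-β + IL-4 are printed from the plus strand of mm9, in lower case with motif matches in capitals. The motifs searched were TTC and GAA 4 bases apart, the spacing preferred by STAT6, TTCNNNGAA, the spacing shared by other STAT proteins, CAGAC, the short SMAD element, and TGANTCA, the AP-1 element. Each was searched on both strands. Of 33880 summit windows of that list, 4.5%, 5.3%, 33.5% and 8.8% held the 4 motifs in this order.
Slc16a10, upstream of its start, chr10:39862142-39862292: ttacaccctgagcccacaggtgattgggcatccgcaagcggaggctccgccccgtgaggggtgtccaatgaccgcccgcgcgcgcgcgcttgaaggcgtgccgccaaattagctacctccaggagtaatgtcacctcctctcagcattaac
Slc43a1, upstream of its start, chr2:84678136-84678286: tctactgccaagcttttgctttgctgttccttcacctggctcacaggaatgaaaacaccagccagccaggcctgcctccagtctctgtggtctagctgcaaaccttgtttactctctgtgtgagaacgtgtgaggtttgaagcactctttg
Slc2a6, across its start, chr2:26883493-26883643: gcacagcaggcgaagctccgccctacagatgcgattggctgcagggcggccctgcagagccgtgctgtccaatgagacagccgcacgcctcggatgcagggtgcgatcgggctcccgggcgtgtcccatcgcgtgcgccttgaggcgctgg
Slc2a6, distal, chr2:26894235-26894385: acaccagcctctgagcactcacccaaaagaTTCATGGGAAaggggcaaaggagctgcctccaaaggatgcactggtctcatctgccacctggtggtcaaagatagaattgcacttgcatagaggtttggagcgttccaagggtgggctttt
Slc1a2, intron, chr2:102522453-102522603: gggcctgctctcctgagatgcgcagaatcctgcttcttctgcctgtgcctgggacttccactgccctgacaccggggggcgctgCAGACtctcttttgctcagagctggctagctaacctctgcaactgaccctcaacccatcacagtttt
A start-site DHS of Slc16a10 and of Slc2a6 was called in all 4 conditions, and neither window held a motif. The Slc43a1 site, centred at -777 bp from the start, was called in both WT lists and in neither KO list. The distal site of Slc2a6, centred at -10791 bp from its start in an exon of the annotated gene Gm13398, was present in the WT list with both cytokines alone and held 1 match to the STAT6 spacing. The Slc1a2 site, 23661 bp inside the gene, was called in both cytokine lists and in neither control list, and held 1 CAGAC match. Each list is 1 library and the lists differ in length, from 27145 to 44298 DHSs, so a site missing from a list is not shown to be closed. A match describes letters in a window and not binding.

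TGF-β alone raised 9 carriers in WT cells, and the metal carrier Slc39a8, which takes up zinc and manganese (mm9 chr3:135488243-135551536, plus strand), changed most. It was at 4.35, 4.28 and 5.16 RPKM in WT control and at 13.4, 14 and 14.7 RPKM with TGF-β, a log2 fold change of 1.42 ± 0.084 (SE) with an adjusted p of 3.56e-11 by limma. All 3 TGF-β libraries lay far above all 3 controls. The aromatic amino acid carrier Slc16a10 (chr10:39753341-39862062, minus strand) was at 16.0, 16.6 and 17.5 RPKM in control and 38.5, 35.9 and 37.5 RPKM with TGF-β, again with no overlap (log2 fold change 1.12 ± 0.08, adjusted p 8.14e-10). The equilibrative nucleoside carrier Slc29a1 was the only member above 100 RPKM that was called in any comparison. It went from 158, 157 and 175 RPKM to 299, 284 and 287 RPKM (log2 fold change 0.83 ± 0.053, adjusted p 1.27e-10).

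The remaining 6 members raised by TGF-β in WT cells, of which 5 are described, had smaller folds than Slc39a8 and Slc16a10. Slc31a2, a copper carrier of endosomes, was at 2.44, 1.89 and 2.18 RPKM in control and 4.80, 5.45 and 4.67 RPKM with TGF-β. The neutral amino acid carrier Slc1a4, the relative of Slc1a5 that prefers alanine, serine and cysteine, was at 1.31, 1.71 and 1.21 RPKM and reached 3.17, 3.72 and 3.51 RPKM. For each of them the 2 groups did not overlap, and 21% of all tested genes lay above control without overlap. The lysosomal sialic acid carrier Slc17a5 rose from a mean of 1.87 ± 0.12 to 3.96 ± 0.225 RPKM (SD, n = 3), and the branched-chain amino acid carrier Slc43a2 from 1.42 ± 0.109 to 2.99 ± 0.013 RPKM. The vesicular ATP carrier Slc17a9 rose from 8.23 ± 0.137 to 13.6 ± 1.27 RPKM. The log2 fold changes of these 6 lay between 0.66 and 0.92, and only the call of Slc17a9 was lost on leaving out a replicate number, number 2.

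TGF-β lowered 2 members in WT cells. Slc1a2, a glutamate carrier best known from astrocytes, was at 1.68, 1.26 and 1.44 RPKM in control and at 0.422, 0.269 and 0.393 RPKM with TGF-β (log2 fold change -0.85 ± 0.105, adjusted p 2.41e-06). The urea carrier Slc14a1 was at 1.82, 2.38 and 2.30 RPKM in control and at 0.930, 1.15 and 1.08 RPKM with TGF-β (log2 fold change -0.62 ± 0.14, adjusted p 0.00266). Neither overlapped between the groups, and 17.5% of all tested genes lay below control without overlap. The call of Slc14a1 was lost without replicate 1 or without replicate 3. Slc43a3, a purine nucleobase carrier, was at 22 to 22.4 RPKM in control and 29.3 to 30.6 RPKM with TGF-β, and its log2 fold change of 0.41 missed the fold threshold.

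**Figure D3:**
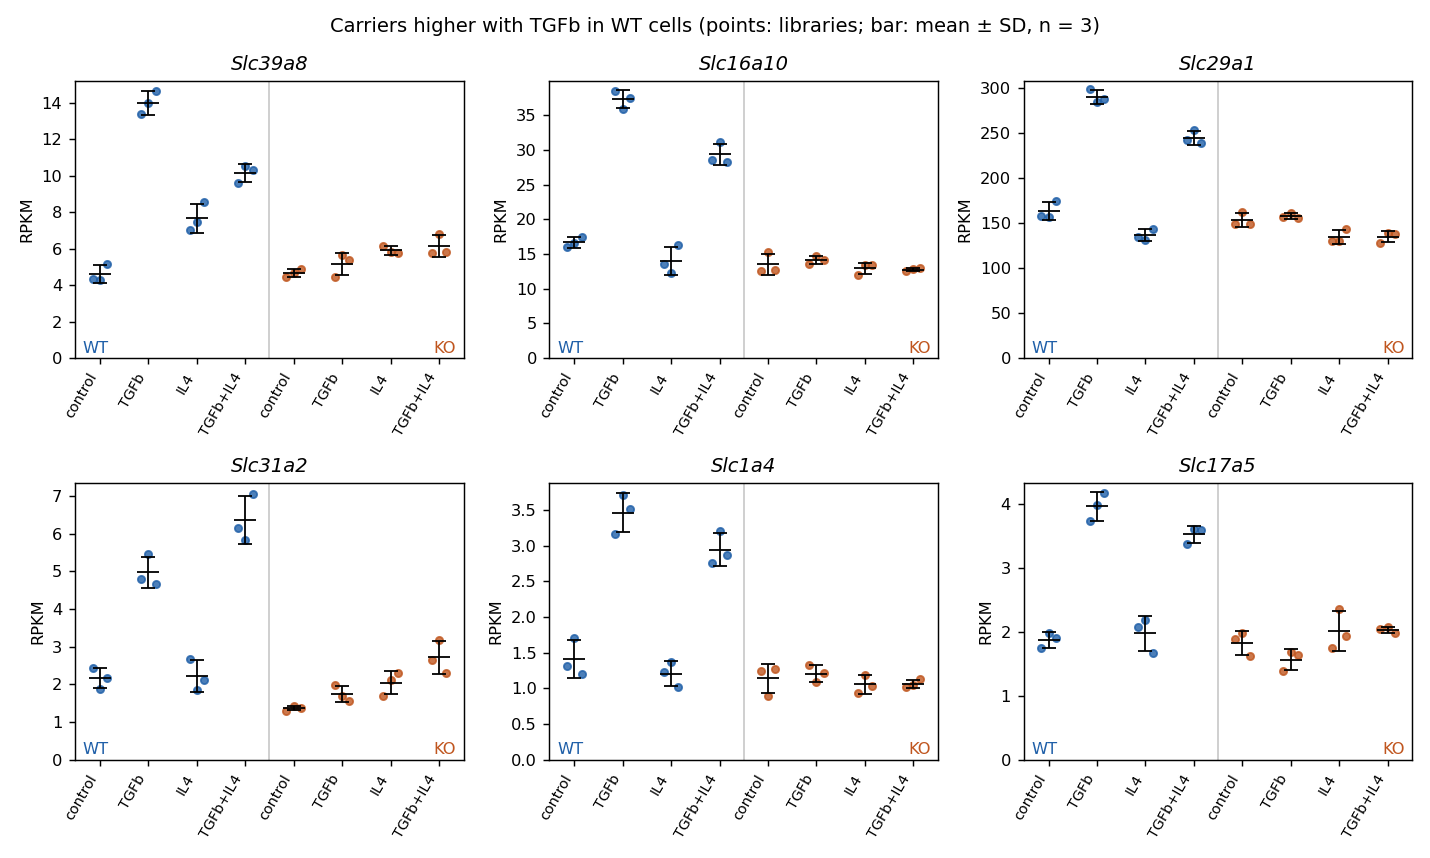
RPKM of 6 carriers in each of 24 libraries (points, blue for WT and orange for KO, linear axes from 0), with the mean ± SD of the 3 libraries of a condition in black. The WT TGF-β and WT TGF-β + IL-4 libraries of each gene lie above all 3 WT control libraries, and the KO libraries of Slc39a8 stay between 4.42 and 6.82 RPKM.

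In Tgfbr1 KO cells TGF-β alone moved no member past the thresholds. By limma 0 members were called higher and 0 lower, with 0.0617% of all genes higher and 0% lower, and 6 members were at an unadjusted p under 0.05 (3.97%, against 2.89% of all genes). Log2 fold changes of the members lay between -0.35 and 0.23. Slc39a8 was at 4.42, 4.65 and 4.90 RPKM in KO control and at 4.46, 5.64 and 5.37 RPKM with TGF-β. Slc16a10 was at 12.6, 15.3 and 12.8 RPKM and at 13.6, 14.7 and 14.1 RPKM, and Slc29a1 at 149, 162 and 149 RPKM and at 156, 161 and 155 RPKM. These groups overlapped. All 9 members raised by TGF-β in WT cells had a log2 fold change between -0.14 and 0.21 in KO cells.

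The difference between genotypes was tested itself as an interaction, the TGF-β fold change in KO minus that in WT, a contrast added after the values had been seen. It called 10 members lower and 1 higher (background 2.53% and 1.7%). The 9 raised members were all among the 10, from Slc39a8 (-1.31 ± 0.119, adjusted p 8.42e-08) and Slc16a10 (-1.05 ± 0.114) to Slc43a2 (-0.65 ± 0.097). The tenth was the fatty acid carrier Slc27a1 (-0.62 ± 0.11), at 1.86 to 2.28 RPKM in WT control and 2.81 to 3.02 RPKM in WT TGF-β but at 1.15 to 1.40 RPKM in KO TGF-β. Slc1a2 was the 1 higher (1.03 ± 0.148). Without replicate 1 the count of 11 fell to 6, and the calls of Slc17a9 and Slc31a2 were lost on leaving out any of the 3 replicate numbers. Sums of markers of other cells moved with this difference. With TGF-β the summed CD8 markers went from 24.8 to 26.9 RPKM down to 16.6 to 17.3 RPKM in WT cells. In KO cells they went from 14.8 to 16.7 RPKM to 14.3 to 15.2 RPKM. Taken alone, the CD8 gene Cd8a overlapped in WT cells, at 5.45 to 6.12 RPKM in control and 5.04 to 5.58 RPKM with TGF-β. The NK markers went from 3.28 to 3.38 RPKM down to 1.03 to 1.34 RPKM in WT cells, and were at 2.30 to 3.30 RPKM and 2.04 to 3.07 RPKM in KO cells. The B cell markers went from 14.8 to 23.3 RPKM down to 11.2 to 13.4 RPKM in WT cells. In KO cells the B cell markers overlapped, at 9.27 to 10.5 RPKM and 8.14 to 10.6 RPKM. The part of these markers in the genotype difference was not tested.

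**Figure D4:**
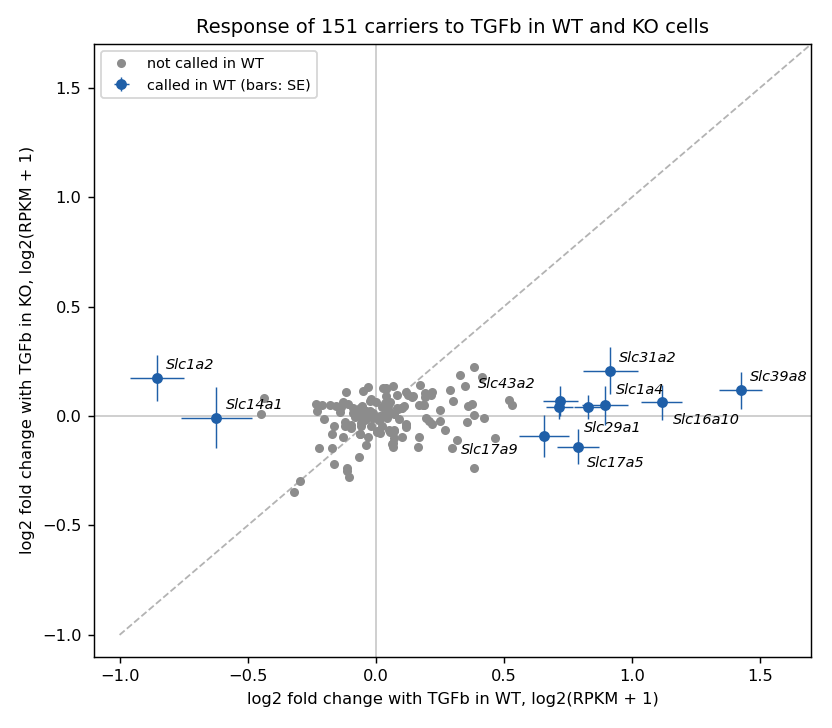
Log2 fold change with TGF-β on the log2(RPKM + 1) scale in WT cells (horizontal) and in KO cells (vertical) for the 151 carriers, with members called in WT in blue and error bars of 1 SE. The 9 members raised in WT, up to 1.42 for Slc39a8, lie within -0.14 and 0.21 in KO, far from the dashed line of equal change.

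IL-4 alone changed 5 carriers in WT cells, and Slc2a6, a hexose carrier of lysosomes (mm9 chr2:26876883-26883518, minus strand), changed most. In WT cells it was at 12.1, 12.6 and 11.0 RPKM in control and at 26.0, 23.6 and 24.5 RPKM with IL-4 (log2 fold change 0.99 ± 0.122, adjusted p 9.06e-06). In KO cells it was at 3.97, 3.91 and 5.07 RPKM in control and at 22.9, 20.3 and 26.8 RPKM with IL-4 (2.19 ± 0.122, adjusted p 2.51e-11). The IL-4 levels of the genotypes overlapped, while the control levels did not. Sums of markers of other cells also moved with IL-4. The summed CD8 markers went from 24.8 to 26.9 RPKM to 29.9 to 36.3 RPKM in WT cells, without overlap. In KO cells they went from 14.8 to 16.7 RPKM to 26.3 to 27.2 RPKM, also without overlap. Taken alone, the CD8 gene Cd8a overlapped in WT cells, at 5.45 to 6.12 RPKM in control and 5.20 to 6.18 RPKM with IL-4. In KO cells Cd8a went from 1.14 to 1.32 RPKM to 1.59 to 2.62 RPKM. The NK markers went from 3.28 to 3.38 RPKM to 5.23 to 7.16 RPKM in WT cells, without overlap. In KO cells the NK markers overlapped, at 2.30 to 3.30 RPKM and 3.07 to 5.15 RPKM. The B cell markers overlapped in WT cells, at 14.8 to 23.3 RPKM and 12.4 to 24.3 RPKM. In KO cells the B cell markers went from 9.27 to 10.5 RPKM to 12.2 to 13.6 RPKM, without overlap. The part of these markers in the IL-4 results was not tested. The added interaction of IL-4 with genotype called Slc2a6 alone among the members (1.20 ± 0.172, adjusted p 0.00103, with 0.113% of all genes higher and 0% lower). Of the members, 0 were called lower. At an unadjusted p under 0.05 by limma, 13 members were higher (8.61%, against 4.4% of all genes) and 5 lower (3.31%, against 3.16%). The call of Slc2a6 was lost on leaving out any of the 3 replicate numbers.

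The lysosomal peptide and histidine carrier Slc15a3 and the branched-chain amino acid carrier Slc43a1 were also higher with IL-4 in both genotypes. In WT cells Slc15a3 was at 1.10, 0.975 and 1.11 RPKM in control and 2.50, 2.19 and 2.08 RPKM with IL-4, and in KO cells at 0.291, 0.248 and 0.434 RPKM and 1.28, 1.25 and 1.63 RPKM. Slc43a1 was at 1.83, 2.20 and 2.27 RPKM in WT control and 4.03, 3.85 and 3.68 RPKM with IL-4, and in KO cells at 1.33, 1.46 and 1.72 RPKM and 5.21, 4.50 and 3.87 RPKM. No IL-4 library of these genes overlapped the controls of its genotype. Of all tested genes, 12.9% lay above control without overlap in WT cells and 14.7% in KO cells. Both WT calls were lost without replicate 1 or without replicate 2. Slc15a3 had a mean of 0.324 RPKM in KO control and 0.387 RPKM in KO TGF-β. Its place above the limit of 1 RPKM thus leaned on the cultures with IL-4. Its rise with IL-4 is therefore not separate from the choice of members. Slc15a3 shares 1529 bp of exon with Tmem132a on the opposite strand, which was at a mean of 0.72 RPKM. The libraries did not keep strand, so reads there cannot be told apart. The fourth member raised by IL-4 in WT cells was Slc39a8, at 7.01, 7.44 and 8.56 RPKM (0.63 ± 0.084), and in KO cells its log2 fold change of 0.29 ± 0.084 was not called. That difference between genotypes did not pass the test (-0.34 ± 0.119, adjusted p 0.412).

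Slc9b2, an exchanger of sodium and protons, was the only member called lower with IL-4 in either genotype. It went from 18.4, 15.4 and 18.8 RPKM to 10.4, 10.8 and 11.2 RPKM in WT cells (-0.65 ± 0.074, adjusted p 3.55e-06) and from 20.2, 21.4 and 21.1 RPKM to 9.82, 8.79 and 9.20 RPKM in KO cells (-1.09 ± 0.074, adjusted p 6.7e-10). The WT call was lost without replicate 1. The change did not differ between genotypes past the threshold (-0.45 ± 0.104, adjusted p 0.0733). With both cytokines KO cells stayed low, at 8.24, 10.4 and 10.1 RPKM. WT cells with both cytokines were at 16.3, 16.8 and 16.5 RPKM, within the range of WT control, and with TGF-β alone at 24.4, 22.5 and 24.5 RPKM.

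KO cells had 4 further members called higher with IL-4. The bicarbonate carrier Slc4a7 rose from 6.96 to 8.07 RPKM in control to 11.9 to 14.7 RPKM, and the monocarboxylate carrier family member Slc16a6 from 3.59 to 4.54 RPKM to 6.29 to 7.76 RPKM. Slc1a2 was at 1.31, 0.812 and 1.14 RPKM in KO control and 2.64, 2.90 and 2.79 RPKM with IL-4, and Slc14a1 at 2.46, 2.04 and 2.69 RPKM and 3.65, 4.93 and 4.09 RPKM. In WT cells the log2 fold changes of these 4 with IL-4 lay between 0.32 and 0.47, under the fold threshold, and none was called in the interaction. The KO call of Slc14a1 was lost on leaving out any replicate number. Slc16a6 shares 1052 bp of exon with Amz2 on the opposite strand, at a mean of 7.96 RPKM.

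**Figure D5:**
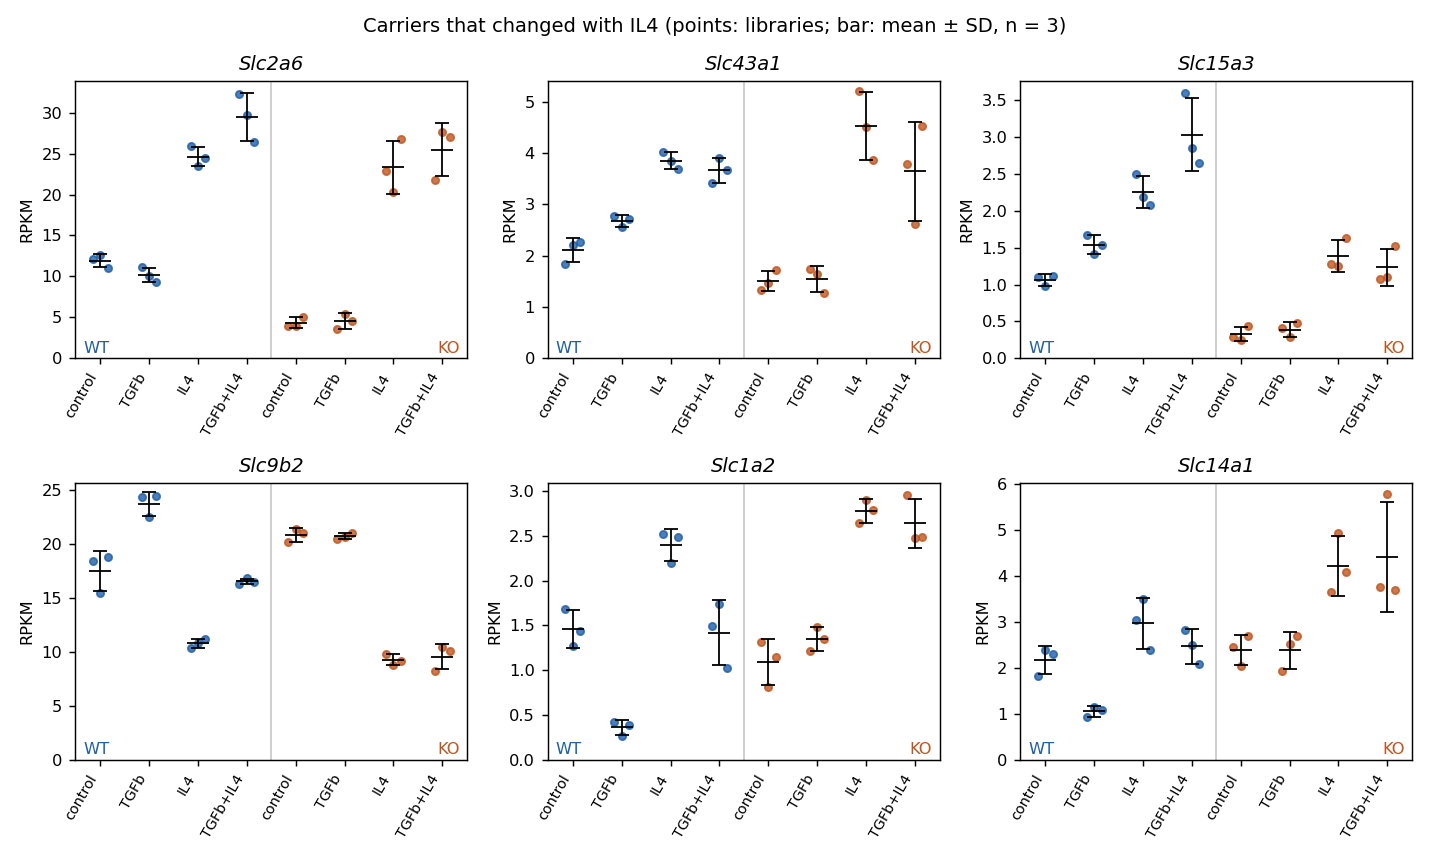
RPKM of 6 carriers that changed with IL-4 in each of 24 libraries (points, blue for WT and orange for KO, linear axes from 0), with the mean ± SD of the 3 libraries of a condition in black. Slc2a6 lies above 20 RPKM in every library with IL-4 and at 12.6 RPKM or below in every library without it, and Slc1a2 is lowest in WT TGF-β, at 0.269 to 0.422 RPKM.

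With TGF-β + IL-4, the Th9 condition, WT cells had 15 members higher than control, and 6 of them were also higher with TGF-β alone (Slc39a8, Slc16a10, Slc31a2, Slc1a4, Slc17a5 and Slc43a2). Slc2a6 led with 32.3, 29.7 and 26.4 RPKM (1.24 ± 0.122), followed by Slc31a2 at 6.17, 5.84 and 7.07 RPKM (1.21 ± 0.107) and Slc39a8 at 9.58, 10.5 and 10.3 RPKM (1.00 ± 0.084). Slc15a3 was at 3.60, 2.86 and 2.65 RPKM (0.96 ± 0.098) and Slc16a6 at 13, 13.2 and 11.4 RPKM (0.88 ± 0.076). Of the 9 members raised by TGF-β alone, Slc29a1 was at 242, 253 and 239 RPKM, above all controls, and missed the fold threshold with 0.58 ± 0.053. Slc43a1, at 3.41, 3.90 and 3.67 RPKM, was called as with IL-4 alone (0.59 ± 0.119), a call lost under 5 alternatives.

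Of the 15, 4 more are described that were not called with either cytokine alone. None of these 4 passed against TGF-β alone or in the test of departure from additive change, so a response to the pair in particular is not shown. The chloride-bicarbonate exchanger Slc4a2 was at 9.60, 10.3 and 9.46 RPKM in control and 18.4, 18.3 and 16.6 RPKM with both, with 15.1, 15.5 and 12.9 RPKM in TGF-β alone (0.80 ± 0.083, adjusted p 1.84e-07). The glucose carrier relative Slc2a8 was at 2.69 to 3.30 RPKM and 4.88 to 5.91 RPKM and the magnesium carrier Slc41a3 at 0.857 to 1.20 RPKM and 2.13 to 2.32 RPKM. In TGF-β alone these were at 3.47 to 4.44 RPKM and 1.39 to 1.7 RPKM, above all controls. The mitochondrial carrier Slc25a45 was at 1.96 to 2.22 RPKM and 3.67 to 4.36 RPKM (0.72 ± 0.212, adjusted p 0.00997). None of the 4 overlapped between control and both cytokines, where 30% of all tested genes lay above control without overlap. The call of Slc25a45 was lost under 6 alternatives. Slc4a2 shares 255 bp of exon with Fastk on the opposite strand, at a mean of 39.8 RPKM.

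The falls with TGF-β + IL-4 in WT cells were in Slc25a33 and Slc7a14. Slc25a33, a mitochondrial pyrimidine nucleotide carrier, was at 26.6, 21.7 and 29.3 RPKM in control and 12.2, 13.4 and 12.8 RPKM with both (-0.95 ± 0.152, adjusted p 5.17e-05). Slc7a14, of the cationic amino acid carrier family, was at 10.5, 11.6 and 12.7 RPKM and 7.32, 5.94 and 6.65 RPKM (-0.72 ± 0.209, adjusted p 0.00901), and its call was lost under 6 alternatives. The leucine carrier pair moved less: Slc7a5 was at 10.9, 10.3 and 13.3 RPKM in control and 8.80, 7.77 and 7.95 RPKM with both (-0.44 ± 0.102), and Slc3a2 at 125, 128 and 137 RPKM and 108, 105 and 103 RPKM (-0.31 ± 0.053). Both were lower with an adjusted p under 0.01 (0.00166 and 0.000113) and under the fold threshold.

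Among the 8 sugar and monocarboxylate carriers, 4 were higher with TGF-β + IL-4 in WT cells (Slc2a6, Slc16a6, Slc16a10 and Slc2a8), with a class median log2 fold change of 0.62. Slc16a10 carries aromatic amino acids and was counted here by its family. Of 22 amino acid and peptide carriers 4 were higher and 1 lower, of 23 metal carriers 3 were higher, and of 32 mitochondrial carriers 1 was higher and 1 lower. Over all tested genes 5.93% were higher and 2.53% lower. None of the 22 carriers of nucleotide sugars and of the secretory pathway was called in any of the 12 comparisons, which held for 86.3% of all tested genes. No class was tested as a set.

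Adding IL-4 to TGF-β in WT cells raised 4 members and lowered 0 (background 2.06% and 0.236%), while 27 members were lower at an unadjusted p under 0.05 by limma (17.9%, against 15.2% of all genes). The 4 were Slc2a6 (1.45 ± 0.122), Slc1a2 (0.82 ± 0.105), Slc14a1 (0.75 ± 0.14) and Slc15a3 (0.66 ± 0.098). Slc1a2 was at 1.5, 1.74 and 1.02 RPKM with both cytokines and Slc14a1 at 2.84, 2.50 and 2.08 RPKM, so both were back in or near the range of WT control. Without replicate 1 the calls of Slc14a1 and Slc15a3 were lost. The added test of TGF-β with IL-4 in WT cells, the departure of the pair from the sum of the single log2 changes, called Slc39a8 alone (-1.06 ± 0.119, adjusted p 1.61e-05). Of the members 0 were higher by limma, with 8 at an unadjusted p under 0.05 (5.3%, against 11.7% of all genes), and the background was 0.956% higher and 0.298% lower.

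In KO cells TGF-β + IL-4 called the 8 members of IL-4 alone, in the same direction, and Slc31a2. Slc2a6 was at 21.8, 27.7 and 27.0 RPKM (2.32 ± 0.122), Slc43a1 at 3.78, 2.62 and 4.53 RPKM and Slc15a3 at 1.07, 1.10 and 1.52 RPKM. Slc31a2 went from 1.31, 1.44 and 1.38 RPKM to 2.66, 3.19 and 2.31 RPKM (0.64 ± 0.107), a call lost without replicate 1 or without replicate 2. KO TGF-β + IL-4 replicate 2 was the shallowest library (relative depth 0.794) and held the highest Slc14a1 and Slc25a45 values, 5.79 RPKM each. The summed CD8 markers were at 26.3 to 28.3 RPKM, above KO control (14.8 to 16.7 RPKM). The B cell markers were also above it (15.1 to 26.3 RPKM, against 9.27 to 10.5 RPKM). So were the NK markers (4.06 to 6.85 RPKM, against 2.30 to 3.30 RPKM) and the myeloid markers (4.14 to 6.65 RPKM, against 2.21 to 3.47 RPKM). The part of these markers was not tested. With only the compared groups in the fit the count of 9 fell to 4, and without replicate 1 to 5.

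The fold change of TGF-β + IL-4 differed between genotypes for 9 members, with 2 higher and 7 lower in KO (background 1.71% and 3.46%). The 7 lower were Slc9b2 (-0.98 ± 0.104), Slc16a10 (-0.85 ± 0.114), Slc43a2 (-0.81 ± 0.097), Slc29a1 (-0.77 ± 0.075), Slc1a4 (-0.76 ± 0.128), Slc39a8 (-0.66 ± 0.119) and Slc27a1 (-0.64 ± 0.11). All but Slc9b2 and Slc27a1 were among the 9 raised by TGF-β alone in WT cells. With both cytokines Slc16a10 was at 28.6, 31.2 and 28.3 RPKM in WT and 12.5, 12.8 and 13 RPKM in KO. Slc2a6 (1.08 ± 0.172) and Slc1a2 (0.84 ± 0.148) were the 2 higher. Without replicate 1 or without replicate 3 the count fell to 5, and the calls of Slc1a2, Slc1a4, Slc27a1 and Slc39a8 were lost.

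In control medium 2 members were lower in KO than in WT and 0 higher (background 2.07% and 0.576%), by limma. At an unadjusted p under 0.05, 38 members were lower (25.2%, against 14.6% of all genes) and 13 higher (8.61%, against 17.9%). They were Slc2a6, at 11.0 to 12.6 RPKM in WT and 3.91 to 5.07 RPKM in KO (-1.28 ± 0.122, adjusted p 1.95e-07), and Slc15a3, at 0.975 to 1.11 RPKM and 0.248 to 0.434 RPKM (-0.64 ± 0.098, adjusted p 9.13e-05). The call of Slc15a3 was lost without replicate 1. Both are among the members that IL-4 raised. The lactate carrier Slc16a3, left out of the 151, was also lower in KO control (10.9 to 11.6 RPKM in WT and 6.50 to 6.73 RPKM in KO). The CD8 markers summed to 24.8 to 26.9 RPKM in WT control and 14.8 to 16.7 RPKM in KO control, and the myeloid markers to 5.56 to 7.65 RPKM and 2.21 to 3.47 RPKM. The B cell markers summed to 14.8 to 23.3 RPKM in WT control and 9.27 to 10.5 RPKM in KO control. The part of these markers in the differences between genotypes was not tested.

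Transporters without an Slc symbol and genes known to act on carriers were taken as a list of which 37 were tested. The list was chosen with earlier results of these data known. With TGF-β in WT cells 3 were higher and 1 lower, with 3.09% of all tested genes higher and 2.3% lower as background. The water and glycerol channel Aqp3 changed most (4.83 ± 0.191), with the sterol exporter Abcg1 (0.74 ± 0.136) and the sodium pump subunit Atp1b1 (0.93 ± 0.069) also higher and the organic anion carrier Slco4a1 lower (-1.85 ± 0.092). In KO cells TGF-β alone raised Aqp3 (1.23 ± 0.191, adjusted p 0.00449). With TGF-β + IL-4 in WT cells 2 of the list were higher and 3 lower (background 5.93% and 2.53%).

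Most members had open chromatin at their starts in every list. A DHS within 1000 bp of an annotated start was called for 140 of 151 members (92.7%) in the control list of WT cells and 137 (90.7%) in their TGF-β + IL-4 list. In KO cells the control list gave 137 (90.7%) and the TGF-β + IL-4 list 132 (87.4%). Over the 9580 tested genes with a position the shares were 92.9%, 91.8%, 91.5% and 89.5%. In all 4 lists 130 members had one and 9 had none. The same counts were not made over all tested genes, so they are not shown to be particular to the members. Those 9 included Slc1a2, which had DHSs within its introns, and Slc7a14, with no DHS within 20000 bp of the gene in any list and a mean of 7.70 RPKM.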

How the data were processed

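Reads were mapped to mm9 with Bowtie2 by the authors, who dropped duplicate and poorly mapped reads and deposited RPKM values for 24 RNA-seq libraries made by Smart-seq2, a method that keeps no strand. DHSs were called by the authors with MACS, 1 list per DNase-seq library, all labelled with number 3. The deposited lists give each DHS a fold enrichment over background, and a -log10 p and -log10 q. Versions are not given in the sources used here. RPKM are not counts, so the edgeR test of the study could not be repeated, and the total depth, and with it counting error, is unknown.

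RNA columns were read by position in library-number order (0 columns were left out). Values were taken as log2(RPKM + 1), genes with a mean under 1 RPKM were removed, and 8 groups of 3 were fitted together with limma 3.58.1 (moderation with a trend) in R 4.3.3, with Benjamini-Hochberg adjustment over 9726 genes. Python 3.11.15, pandas 2.3.3, numpy 2.4.6 and matplotlib 3.10.9 were used for tables and figures. All 151 members had a position in the mm9 annotation (GENCODE), as did 9580 tested genes. The test was checked on simulated data. The members, role classes and other lists were chosen with earlier results of these data known. Genes were named as the up to 10 members with the largest rise and fall called in each comparison, those called in the genotype interaction, the 2 highest of each class, members at the limit of 1 RPKM and carriers well known in activated T cells. The labels number the libraries of each culture 1 to 3 and do not say that a number marks one mouse, so p-values measure the spread between these libraries. Alternatives were other pseudocounts, filters, scalings, thresholds and sample sets, the replicate number as a block, and each replicate number left out. A few members that enter the counts are not reported here by name.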

Additional observations from a re-analysis of the deposited data

Results flagged for a closer look

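Each of the following results was singled out because a change differed between genotypes, or a TGF-β change differed with IL-4 present, in a limma test of the difference itself on log2(RPKM + 1). Values are the log2 fold change in KO minus that in WT. For TGF-β + IL-4 against control these were Slc2a6 (1.08), Slc1a2 (0.84), Slc9b2 (-0.98), Slc16a10 (-0.85), Slc43a2 (-0.81), Slc29a1 (-0.77), Slc1a4 (-0.76), Slc39a8 (-0.66) and Slc27a1 (-0.64).

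For TGF-β alone they were Slc1a2 (1.03), Slc39a8 (-1.31), Slc16a10 (-1.05), Slc17a5 (-0.93), Slc1a4 (-0.84), Slc29a1 (-0.79), Slc17a9 (-0.75), Slc31a2 (-0.71), Slc43a2 (-0.65) and Slc27a1 (-0.62). For IL-4 alone it was Slc2a6 (1.20), whose WT control level was the higher one. In WT cells the change of Slc39a8 with both cytokines was lower than the sum of the single changes by -1.06. The contrasts of TGF-β alone, of IL-4 alone and within WT cells were added after the data had been seen. The genotypes share no library, but all genotype contrasts, that of IL-4 alone included, share the control libraries of both genotypes. A gene flagged in more than 1 of them, such as Slc2a6, is therefore not a separate result each time.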

How the results depend on the processing

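The limits are 3 libraries per group, an unknown total depth, 1 DNase-seq library per condition, and KO columns whose reading by position could not be checked. With the replicate number as a block, all 78 named log2 fold changes kept their call, and the genotype difference with TGF-β + IL-4 went from 9 to 10 members while the other counts stayed. Same-numbered libraries deviated together in KO TGF-β and control (r of 0.31, 0.351 and 0.331, each the highest for its library). In WT TGF-β and control this held for numbers 2 and 3 (0.553 and 0.487) but not for number 1 (-0.052). In KO TGF-β + IL-4 and control it held for number 1 (0.291) but not for numbers 2 and 3 (-0.132 and -0.297). The numbers are thus not shown to pair the libraries throughout. Quantile normalization lost 10 calls, and leaving out replicate 1, 2 or 3 lost 25, 15 and 15. With columns as headed 74 calls were lost and 4 values reversed, Slc14a1 to 0.113 with TGF-β in WT and -0.119 for TGF-β + IL-4 against TGF-β, and Slc39a8 to -0.012 with IL-4 in WT and 0.352 for the departure from additive change. The counts of members called, including the 3 contrasts added after seeing the data, were then 0 throughout.

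With a mean of at least 5 RPKM, which tests fewer genes, the counts were 5 for WT TGF-β, 3 for WT IL-4, 7 for WT TGF-β + IL-4, 1 against TGF-β, 4 for KO IL-4, 4 for KO TGF-β + IL-4, 1 for KO against WT control, and 5 for the genotype difference with TGF-β + IL-4 and with TGF-β alone. With the 8 WT libraries that have listed counts, WT IL-4 gave 3. With only the compared groups, KO TGF-β + IL-4 gave 4 and KO against WT control 1. The latter was 5 with a pseudocount of 0.1, 1 after quantile normalization and 4 at an adjusted p under 0.05. Leaving out a replicate number gave 10 to 10 for WT TGF-β, 2 to 5 for WT IL-4, 15 to 17 for WT TGF-β + IL-4, 2 to 5 against TGF-β, 6 to 7 for KO IL-4, 5 to 8 for KO TGF-β + IL-4, 1 to 3 for KO against WT control, 5 to 12 for the genotype difference with TGF-β + IL-4, 6 to 9 with TGF-β alone and 0 to 0 with IL-4 alone. With DHS lists of equal length, 84.1% of members had a promoter DHS in WT control. The cause of these changes was not tested.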
